A study of Sus scrofa with 18 samples.

Results

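The genes described here encode subunits of the proteasome and molecular chaperones, the machines that destroy and fold proteins. The members were all probe sets whose only gene symbol in the platform annotation began with PSMA, PSMB, PSMC, PSMD, PSME, HSP, DNAJ, or CCT followed by a digit. This gave 125 of the 24123 probe sets on the array, from 88 genes. The proteasome had 42 probe sets for 37 genes and the chaperones had 83 probe sets for 51 genes. A probe set was tested where its intensity was over 100, a log2 value of 6.64, on at least 6 of the 18 arrays. Of the proteasome probe sets 41 passed, covering all 37 genes. Of the chaperone probe sets 65 passed, from 45 genes, and DNAJC9, HSPA12A, HSPA6, HSPB2, HSPB3 and HSPB7 had none that passed. Of those that passed, 38 proteasome and 45 chaperone probe sets were over 100 on all 18 arrays. The other 3 and 20 were under it on some arrays, and those that passed through the arrays where they were high count among the calls below without being evidence of a direction. No probe set carried PSMB9 or PSMD9 as its only symbol.

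The arrays measured RNA in the endometrium, the lining of the uterus, of pregnant Yorkshire and Meishan gilts, young female pigs mated to boars of their own breed. Each breed was sampled on gestational day (GD) 15, 26 and 50, and each of the 6 groups had 3 arrays. The study set GD26 against GD15, and GD50 against GD26, to follow the endometrium from implantation into placental growth in breeds that differ in litter size. The gilts had no other treatment named. Each array held a pool of RNA from corresponding attachment sites of the same 2 gilts, so p-values measure only the spread between these site pools and not the spread between animals. Values are log2 intensities, and a difference of 1 is a 2-fold change.

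The 26S proteasome is built from a barrel, the 20S core, and a 19S regulatory cap that recognises and unfolds proteins tagged with ubiquitin. The alpha subunits (PSMA) form the outer rings of the barrel and the beta subunits (PSMB) the inner rings that cut proteins. The cap holds ATPases (PSMC) and non-ATPase subunits (PSMD), and the PSME proteins are alternative caps. Interferon induces PSMB8 and PSMB10, which replace standard catalytic subunits to form the immunoproteasome, and PSME1 and PSME2, which cap the barrel and open it. HSP70 and HSP90 proteins bind and fold client proteins, J-domain proteins (DNAJ) bring clients to HSP70, the chaperonin ring (CCT) folds actin and tubulin, and small heat shock proteins (HSPB) hold unfolded proteins in solution. The endometrium of early pregnancy is a secretory tissue in which interferons from the conceptus act in the pig.

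The later Yorkshire arrays, 3 of GD26 and 3 of GD50, had lower overall levels than the other 12. Their median over the tested probe sets was 7.78 to 8.13, against 8.31 to 8.40 on the others, and 6904 to 7676 of the 9320 tested probe sets were over 100, against 8163 to 8384. Their hybridization controls were higher (11.79 to 13.68 against 10.04 to 11.43), and their 3′ minus 5′ differences were smaller for GAPDH (-0.03 to 0.52 against 0.74 to 1.56) and actin (2.38 to 2.91 against 3.54 to 5.23). These properties cannot be told apart from the groups that carry them. Every comparison is therefore given on the deposited values and after each array was shifted to a common median, called median centred below. Among the Meishan GD15 arrays, replicate 3 had a proteasome median of 9.92, against 10.59 and 10.56 on replicates 1 and 2. Uterine epithelium markers were all 8 over the filter, with summed levels of 15.65 to 16.17 over all arrays. The sums of 4 stroma markers were 14.47 to 15.25. Both sums weigh bright markers most and hide shifts of single ones. By GD26, 2 epithelium markers were called higher and 4 lower in Yorkshire (4 and 3 median centred), and 3 and 3 in Meishan. SAL1 averaged 10.8 on GD15 and 3.46 on GD26 in Yorkshire (Meishan 10.59 and 4.16), and KRT19 9.1 and 11.42 (Meishan 10.01 and 11.86). COL1A2, of the stroma, averaged 4.5 and 9.85 in Yorkshire and 4.89 and 5.6 in Meishan. Of 7 trophoblast and placenta markers 6 passed the filter, and their sums were 7.28 to 7.57 on GD15 arrays, 15.3 to 16.44 on GD26 arrays and 15.51 to 16.43 on GD50 arrays. The GD15 sums were mostly CYP19A3, which averaged 6.84 to 7.2 in all groups and did not follow the days. The other markers that passed averaged 2.18 to 2.69 on GD15, near the floor. By these other markers placental RNA was present on GD26 and GD50, and its part in the differences between days was not tested. In such bulk samples, fewer cells of a type and less RNA per cell cannot be told apart.

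Levels were first summarized by family on each array. The median level of the chaperones, set against the array median, was higher on GD26 than on GD15 in both breeds, and that of the proteasome overlapped between the days. These are medians of levels of unlike probe sets. The changes of the single chaperone probe sets had a median of 0.04 in Meishan, against -0.06 over all tested probe sets, with 12 called higher and 13 lower, so the level median there does not stand for a rise of the members. In Yorkshire endometrium, the chaperone median minus the array median was 0.51 ± 0.10 on GD15, 1.07 ± 0.08 on GD26 and 1.10 ± 0.10 on GD50 (SD, n = 3 each). In Meishan endometrium it was 0.73 ± 0.06, 1.05 ± 0.07 and 1.00 ± 0.07 on the same days. Every GD26 array lay above every GD15 array of its breed, at 0.99 to 1.15 against 0.45 to 0.63 in Yorkshire and at 0.99 to 1.12 against 0.69 to 0.80 in Meishan. The proteasome median minus the array median was 1.79 ± 0.05, 1.94 ± 0.13 and 1.84 ± 0.13 over the days in Yorkshire, and 1.98 ± 0.41, 2.07 ± 0.03 and 2.02 ± 0.10 in Meishan. As deposited, without the array median taken off, the Yorkshire proteasome median was 10.17 ± 0.04 on GD15, 9.91 ± 0.01 on GD26 and 9.75 ± 0.04 on GD50, and the Meishan median was 10.36 ± 0.38, 10.40 ± 0.03 and 10.35 ± 0.09.

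**Figure D1:**
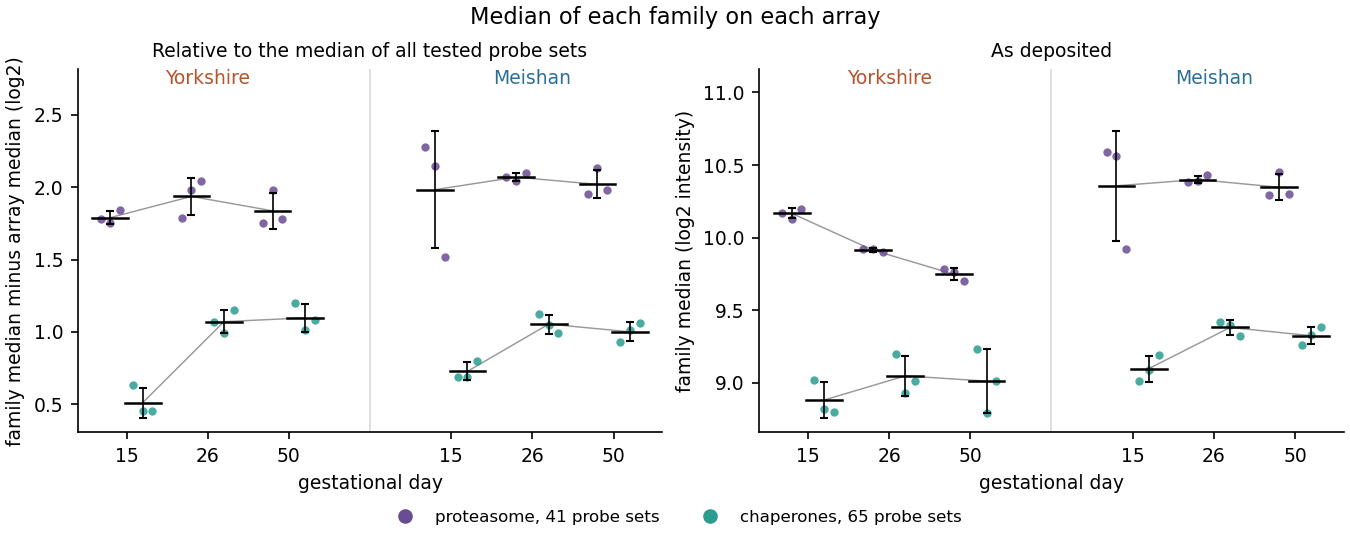
Median of the 41 proteasome and 65 chaperone probe sets that passed the filter, by breed and gestational day, minus the median of all tested probe sets of the same array (left, log2) and as deposited (right, log2 intensity); points are arrays, bars group means and whiskers 1 SD. On the left, chaperone points of GD26 sit above those of GD15 in both breeds, at 0.99 to 1.15 against 0.45 to 0.63 in Yorkshire, while the proteasome points overlap; in Meishan the changes of single chaperone probe sets were split, with 12 called higher and 13 lower.

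In Yorkshire endometrium on GD26 against GD15, the chaperones were split between rises and falls and the proteasome calls were mostly falls before centring and mostly rises after it. On deposited values 21 of 65 chaperone probe sets rose and 17 fell, and 4 of 41 proteasome probe sets rose and 17 fell (limma, Benjamini-Hochberg adjusted p under 0.05 over all tested probe sets). Over all 9320 tested probe sets 20.3% rose and 44.9% fell. After median centring, 32 chaperone probe sets rose and 10 fell and 12 proteasome probe sets rose and 5 fell, where 29.0% of all rose and 30.7% fell. The median change was 0.09 for chaperones, -0.28 for the proteasome and -0.47 over all probe sets on deposited values, and 0.49, 0.11 and -0.08 after centring. On both scales 21 chaperone probe sets rose and 10 fell, and 4 proteasome probe sets rose and 5 fell. The proteasome count of 21 calls was 10 without Yorkshire GD15 replicate 1, 12 without replicate 2, 12 without replicate 3, 11 without Yorkshire GD26 replicate 2 and 13 without replicate 3. The centred count of 17 was 10 without GD15 replicate 1 and 11 without replicate 2.

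In Meishan endometrium on GD26 against GD15, 12 chaperone probe sets rose and 13 fell, and 6 proteasome probe sets rose and 3 fell, where 23.8% of all tested probe sets rose and 27.1% fell. After median centring the counts were 16 and 13 for chaperones and again 6 and 3 for the proteasome, where 25.4% of all rose and 25.5% fell. The median changes were 0.04 for chaperones, 0.13 for the proteasome and -0.06 over all. The proteasome count of 9 rested on Meishan GD15 replicate 3, since without it 7 proteasome probe sets rose and 8 fell, a count of 15.

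**Figure D2:**
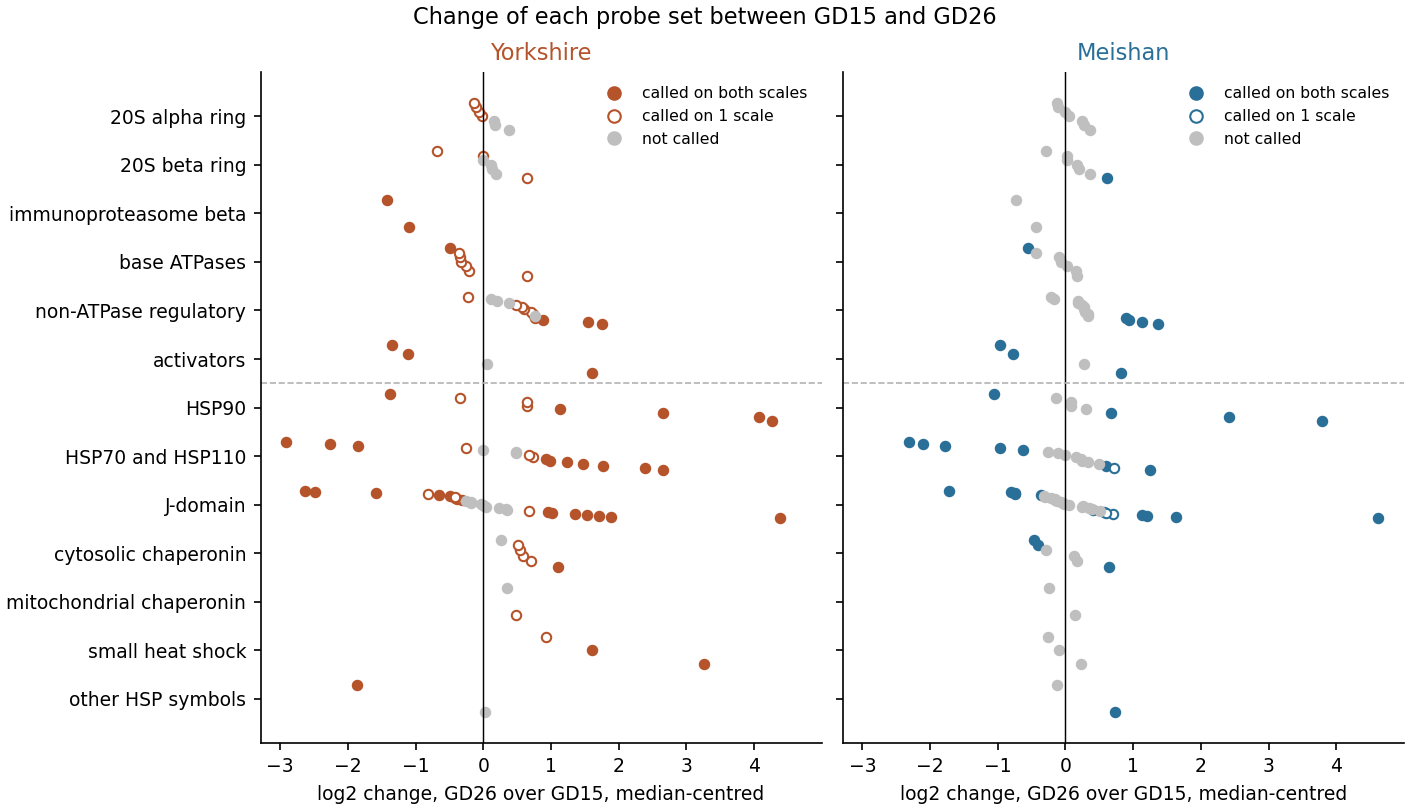
Log2 change on GD26 against GD15, median centred, of each tested probe set by subgroup in Yorkshire (left) and Meishan (right); filled coloured points were called on both scales, open points on 1 scale and grey points on neither. HSP90, HSP70 and J-domain probe sets spread widely on both sides of 0, while those of the 20S rings lie close to it.

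The standard subunits of the 20S rings, PSMB3 apart, varied little over the groups. Over the 6 groups, the means of the 14 standard ring subunits covered a range of 0.33 to 0.81 on the log2 scale, with 1 exception, PSMB3 at 2.19. In Yorkshire on GD26 against GD15, 4 of 7 alpha subunits and 2 of 7 beta subunits fell on deposited values, where 44.9% of all tested probe sets fell. None of the alpha subunits was called after centring, when limma called 1 beta subunit higher and none lower. Of all tested probe sets 29.0% rose and 30.7% fell after centring. In Meishan, none of the alpha subunits was called on either scale and 1 beta subunit, PSMB3, rose. There 23.8% of all rose and 27.1% fell (25.4% and 25.5% after centring).

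PSMB3, a beta subunit without a catalytic site of its own, moved in opposite directions in the 2 breeds. It had 8.62, 8.63 and 8.86 on Yorkshire GD15 arrays, 7.20, 8.12 and 7.58 on GD26 arrays and 7.56, 6.69 and 7.39 on GD50 arrays. In Meishan it had 8.86, 8.70 and 8.14 on GD15, 9.14, 9.14 and 9.13 on GD26 and 9.44, 9.47 and 9.30 on GD50. On deposited values, all Yorkshire arrays of GD26 and GD50 lay below all Meishan arrays of any day, the nearest being at 8.12 and 8.14. This separation did not hold after centring. PSMB3 fell by 1.07 ± 0.29 (SE) in Yorkshire on GD26 against GD15 (limma adjusted p = 0.00866), a call lost after centring (-0.68, adjusted p = 0.0623), and rose by 0.57 ± 0.18 in Meishan (adjusted p = 0.0236). The 2 changes differed by -1.64 ± 0.35 (adjusted p = 0.00236), and by -1.29 after centring (adjusted p = 0.0138).

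The cap subunits were counted as ATPase and non-ATPase members, and the difference between these was not tested. In Yorkshire on GD26 against GD15, 3 of 14 non-ATPase probe sets rose and 1 fell (9 rose and none fell after centring). None of 7 ATPase probe sets rose and 6 fell (1 and 1 after centring). Of all tested probe sets 20.3% rose and 44.9% fell (29.0% and 30.7% after centring). In Meishan 4 non-ATPase probe sets rose and none fell, and 1 ATPase probe set fell, on both scales. There 23.8% of all rose and 27.1% fell (25.4% and 25.5% after centring). PSMD5, which helps assemble the ATPase ring and then leaves it, gave 8.20, 8.48 and 8.29 on Yorkshire GD15 arrays, 9.49, 9.45 and 9.50 on GD26 arrays and 8.81, 8.55 and 9.24 on GD50 arrays. The Meishan arrays gave 8.91, 8.34 and 8.42 on GD15, 9.47, 9.61 and 9.84 on GD26 and 8.71, 8.90 and 8.82 on GD50. In both breeds the GD26 arrays were the highest and did not overlap those of either other day. PSMD5 rose by 1.16 ± 0.20 in Yorkshire (limma adjusted p = 0.000669; 1.55 after centring) and by 1.08 ± 0.18 in Meishan (adjusted p = 0.000688), and fell by 0.83 in Meishan on GD50 against GD26 (adjusted p = 0.0106).

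PSMD1, a large scaffold subunit of the cap, had 2 probe sets that moved unequally. The dimmer PSMD1 set averaged 8.41, 9.76 and 9.50 over the 3 days in Yorkshire and 8.63, 9.95 and 9.07 in Meishan, and rose by 1.35 ± 0.25 in Yorkshire (limma adjusted p = 0.00113) and 1.32 ± 0.16 in Meishan (adjusted p = 9.43e-05) on GD26 against GD15. The brighter PSMD1 set differed by 0.08 (adjusted p = 0.65) and 0.24 (adjusted p = 0.209). PSMD14, the enzyme of the cap that removes ubiquitin chains, rose by 0.85 ± 0.14 in Meishan (adjusted p = 0.000819) and by 0.50 ± 0.18 in Yorkshire (adjusted p = 0.0375). The Yorkshire call of PSMD14 was lost when any of 4 arrays was left out on deposited values, and none after centring (0.89, adjusted p = 0.00181). PSMD10, an assembly factor also called gankyrin, gave 7.60, 7.62 and 7.13 on Meishan GD15 arrays, 8.45, 8.53 and 8.07 on GD26 arrays and 9.04, 8.79 and 8.57 on GD50 arrays. In Yorkshire PSMD10 gave 7.83, 7.5 and 7.55 on GD15, 7.53, 7.66 and 7.13 on GD26 and 8.31, 8.20 and 8.32 on GD50. PSMD10 was thus higher by GD26 in Meishan (0.90 ± 0.19, adjusted p = 0.00363) and on GD50 against GD26 in Yorkshire (0.84 ± 0.18, adjusted p = 0.0174).

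The interferon-inducible members fell after GD15 in Yorkshire, and in Meishan PSME1 and PSME2 did. PSMB8 gave 10.25, 9.61 and 9.77 on Yorkshire GD15 arrays, 7.85, 8.84 and 8.45 on GD26 arrays and 7.69, 8.44 and 8.09 on GD50 arrays. On Meishan arrays PSMB8 gave 10.59, 10.56 and 8.98 on GD15, 9.29, 9.52 and 9.86 on GD26 and 8.24, 7.88 and 8.37 on GD50. The GD15 and GD26 arrays were separate in Yorkshire but overlapped in Meishan, where replicate 3 of GD15 was the lowest of the 6. PSMB10 gave 9.67, 9.02 and 9.51 on Yorkshire GD15 arrays, 7.18, 8.01 and 7.58 on GD26 and 7.96, 8.16 and 7.73 on GD50. The Meishan PSMB10 values were 9.78, 9.63 and 8.26 on GD15, 8.14, 8.53 and 8.69 on GD26, and 8.37, 8.55 and 8.36 on GD50. Again the Yorkshire GD15 arrays were all above the later ones, and in Meishan only replicates 1 and 2 were.

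In Yorkshire PSMB8 fell by 1.5 ± 0.30 (limma adjusted p = 0.00175; -1.10, adjusted p = 0.0181 after centring) and PSMB10 by 1.81 ± 0.26 (adjusted p = 0.000223; -1.42 after centring). The centred call of PSMB8 was lost without Yorkshire GD15 replicate 1 (adjusted p = 0.0733) or GD26 replicate 1 (adjusted p = 0.0574). In Meishan the differences were -0.48 ± 0.39 for PSMB8 (adjusted p = 0.321) and -0.77 ± 0.35 for PSMB10 (adjusted p = 0.0901). Without Meishan GD15 replicate 3 both were called, at adjusted p = 0.00333 for PSMB8 and 0.000581 for PSMB10. PSMB8 also fell in Meishan on GD50 against GD26, by 1.40 ± 0.39 (adjusted p = 0.0338), a call lost when any 1 of the 6 arrays was left out (adjusted p up to 0.108) and with the replicate number as a block (adjusted p = 0.0577).

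PSME1 and PSME2, which together form the PA28 cap, followed the same course. PSME1 gave 12.24, 11.97 and 12.06 on Yorkshire GD15 arrays, 9.91, 10.71 and 10.40 on GD26 arrays and 9.91, 10.37 and 9.70 on GD50 arrays. Meishan arrays had PSME1 at 12.49, 12.51 and 11.77 on GD15, 10.93, 11.34 and 11.46 on GD26 and 10.90, 10.95 and 10.88 on GD50. All GD15 arrays of a breed were above all its later ones. PSME1 fell by 1.75 ± 0.25 in Yorkshire (limma adjusted p = 0.000218) and by 1.01 ± 0.22 in Meishan (adjusted p = 0.00339), on both scales. PSME2 fell by 1.5 ± 0.17 in Yorkshire (adjusted p = 5.29e-05) and by 0.82 ± 0.26 in Meishan (adjusted p = 0.0225). The Meishan call of PSME2 was lost without GD15 replicate 1 (adjusted p = 0.0717) or 2 (0.0867), or GD26 replicate 1 (0.0832) or 2 (0.0549). The larger falls in Yorkshire did not pass the test of the difference between breeds, which was -1.01 for PSMB8 (adjusted p = 0.14), -1.04 for PSMB10 (0.0878), -0.73 for PSME1 (0.1) and -0.68 for PSME2 (0.103).

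PSME3, a nuclear cap that interferon does not induce, moved the other way in Yorkshire. It gave 6.03, 6.5 and 6.46 on Yorkshire GD15 arrays, all under an intensity of 100, 7.56, 7.55 and 7.5 on GD26 and 7.46, 7.16 and 7.55 on GD50. The Meishan PSME3 means were 7.16, 7.39 and 7.06. PSME3 rose by 1.21 ± 0.18 in Yorkshire on GD26 against GD15 (limma adjusted p = 0.000362), at least 1.86-fold when the GD15 level is taken as 100, and was 0.23 higher in Meishan (adjusted p = 0.285). PSME4, a further cap, rose by 0.78 in Meishan (adjusted p = 0.0136), a call lost without GD26 replicate 1 (0.0533), and was -0.34 in Yorkshire.

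Genes that act beside the immunoproteasome in antigen presentation were counted as well. Of 7 listed genes 4 were on the array and all passed the filter. On GD26 against GD15, 3 of the 4 fell in Yorkshire (2 after centring) and 3 fell in Meishan on both scales. Their medians were -1.56 and -0.90, and none rose. Of all tested probe sets 44.9% fell in Yorkshire (30.7% after centring) and 27.1% in Meishan (25.5% after centring). TAP1, which carries peptides into the endoplasmic reticulum, averaged 10.56 on GD15, 8.04 on GD26 and 8.06 on GD50 in Yorkshire, and 9.75, 8.53 and 8.70 in Meishan. IRF1, an interferon-regulated transcription factor, averaged 10.96, 8.23 and 8.23 in Yorkshire and 10.03, 8.67 and 8.70 in Meishan. Of 17 genes listed for proteasome assembly and ubiquitin, 6 were on the array and passed. Of these, 1 rose and 2 fell in Yorkshire (3 and 1 after centring), where 20.3% of all rose and 44.9% fell (29.0% and 30.7% after centring). In Meishan 1 rose and 1 fell, where 23.8% of all rose and 27.1% fell.

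**Figure D3:**
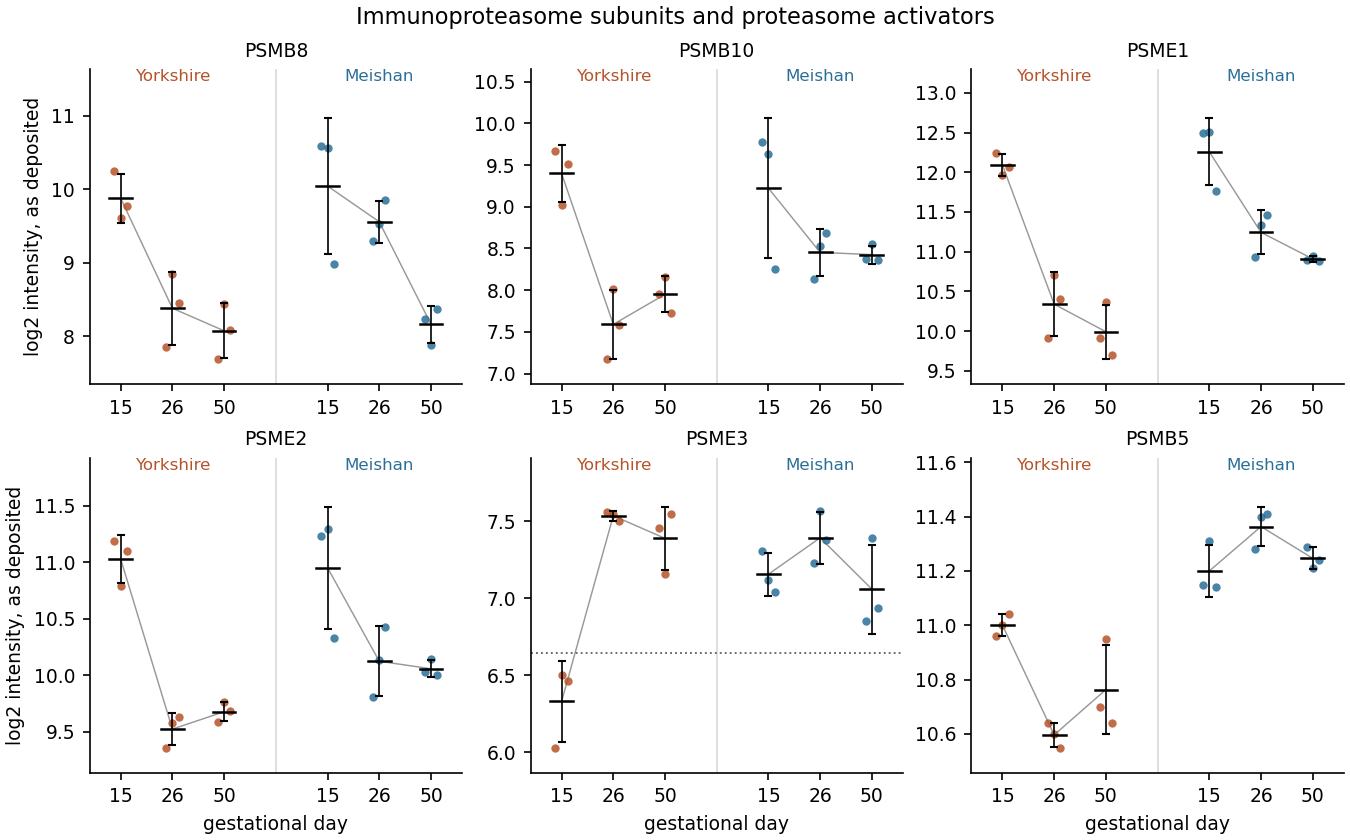
Log2 intensity as deposited of PSMB8, PSMB10, PSME1, PSME2, PSME3 and PSMB5 on every array by breed and gestational day; points are arrays, bars group means, whiskers 1 SD, and the dotted line is an intensity of 100. In Yorkshire the first 4 genes are lower on GD26 than on GD15 on every array, while Meishan GD15 replicate 3 lies under the other GD15 arrays, at 8.98 for PSMB8 and 8.26 for PSMB10.

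Of the endoplasmic reticulum chaperones, HSP90B1, DNAJC3 and DNAJB11 rose on GD26 in both breeds and HSPA5 in Yorkshire. HSP90B1, the HSP90 of that compartment, gave 12.37, 12.53 and 12.57 on Yorkshire GD15 arrays, 13.12, 13.31 and 13.27 on GD26 arrays and 13.10, 12.86 and 13.25 on GD50 arrays with its brighter probe set. On Meishan arrays HSP90B1 gave 12.55, 12.45 and 12.41 on GD15, 13.13, 13.11 and 13.07 on GD26 and 12.98, 12.97 and 12.98 on GD50. No GD15 array reached a later one. HSP90B1 rose by 0.74 ± 0.16 in Yorkshire (limma adjusted p = 0.00315) and by 0.63 ± 0.11 in Meishan (adjusted p = 0.00112). The dimmer HSP90B1 set averaged 9.03, 12.90 and 12.21 over the days in Yorkshire and 8.87, 12.62 and 11.01 in Meishan. It rose by 3.87 ± 0.24 (adjusted p = 1.24e-06) and by 3.75 ± 0.21 (adjusted p = 8.07e-07), so the 2 sets shared a direction and not a size.

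DNAJC3, a J-domain partner of HSPA5 inside the endoplasmic reticulum, gave 7.23, 7.08 and 7.38 on Yorkshire GD15 arrays, 8.60, 8.79 and 8.79 on GD26 and 9.25, 8.46 and 9.30 on GD50. The Meishan DNAJC3 values were 7.37, 7.08 and 6.80 on GD15, 8.59, 8.88 and 8.54 on GD26 and 8.44, 8.52 and 8.52 on GD50. Later arrays were all above GD15 arrays, and DNAJC3 rose by 1.5 ± 0.23 in Yorkshire (limma adjusted p = 0.000402) and 1.59 ± 0.17 in Meishan (adjusted p = 4.68e-05). DNAJB11, another such partner, gave 8.48, 8.82 and 8.95 on Yorkshire GD15 arrays, 9.85, 9.75 and 10.05 on GD26 and 9.75, 9.80 and 9.87 on GD50. In Meishan DNAJB11 gave 9.35, 9.09 and 8.87 on GD15, 10.18, 10.41 and 10.20 on GD26 and 10.13, 10.08 and 10.18 on GD50. DNAJB11 rose by 1.13 ± 0.18 in Yorkshire (adjusted p = 0.000392) and by 1.16 ± 0.15 in Meishan (adjusted p = 0.000163), with no overlap of days.

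The differences between the breeds in these rises were small against their errors, at 0.11 for HSP90B1 (limma adjusted p = 0.647), -0.09 for DNAJC3 (0.832) and -0.03 for DNAJB11 (0.93) on deposited values. DNAJB9, which returns misfolded proteins for disposal, rose with the second brightest of its 3 probe sets by 0.96 ± 0.18 in Yorkshire (adjusted p = 0.00109) and 1.09 ± 0.14 in Meishan (adjusted p = 0.000181). The brightest DNAJB9 set rose by 0.62 in Yorkshire (adjusted p = 0.0217), a call lost without GD15 replicate 1 (0.0669) or 3 (0.0655), and was 0.47 higher in Meishan (adjusted p = 0.0873). The dimmest DNAJB9 set differed by -0.43 in Yorkshire (adjusted p = 0.161). HSPA5, the HSP70 of the endoplasmic reticulum, gave 12.26, 12.41 and 12.56 on Yorkshire GD15 arrays, 13.24, 12.79 and 13.00 on GD26 and 12.32, 12.13 and 12.49 on GD50. HSPA5 rose by 0.60 ± 0.18 in Yorkshire (adjusted p = 0.0166), lost without GD15 replicate 1 (0.0683) or 2 (0.0504), and was 0.20 higher in Meishan (adjusted p = 0.345). The difference between breeds in HSPA5 was 0.40 (adjusted p = 0.2) and 0.75 after centring (adjusted p = 0.0195).

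Of 18 other genes listed for endoplasmic reticulum folding, 13 were on the array and past the filter. On GD26 against GD15, 8 of the 13 rose and 2 fell in Yorkshire (10 and 1 after centring). Of all tested probe sets 20.3% rose and 44.9% fell (29.0% and 30.7% after centring). In Meishan 7 of the 13 rose and none fell on both scales, where 23.8% of all rose and 27.1% fell (25.4% and 25.5% after centring). The medians were 0.88 in Yorkshire and 0.52 in Meishan. CALR, a lectin chaperone, averaged 9.30, 10.59 and 11.27 over the days in Yorkshire and 9.05, 9.85 and 10.00 in Meishan. SDF2L1, which binds unfolded proteins with DNAJB11, averaged 8.82, 9.80 and 9.79 in Yorkshire and 8.24, 9.99 and 10.04 in Meishan. DDIT3, a transcription factor of prolonged stress in this compartment, averaged 8.09, 5.83 and 5.74 in Yorkshire and 7.22, 6.6 and 6.89 in Meishan.

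**Figure D4:**
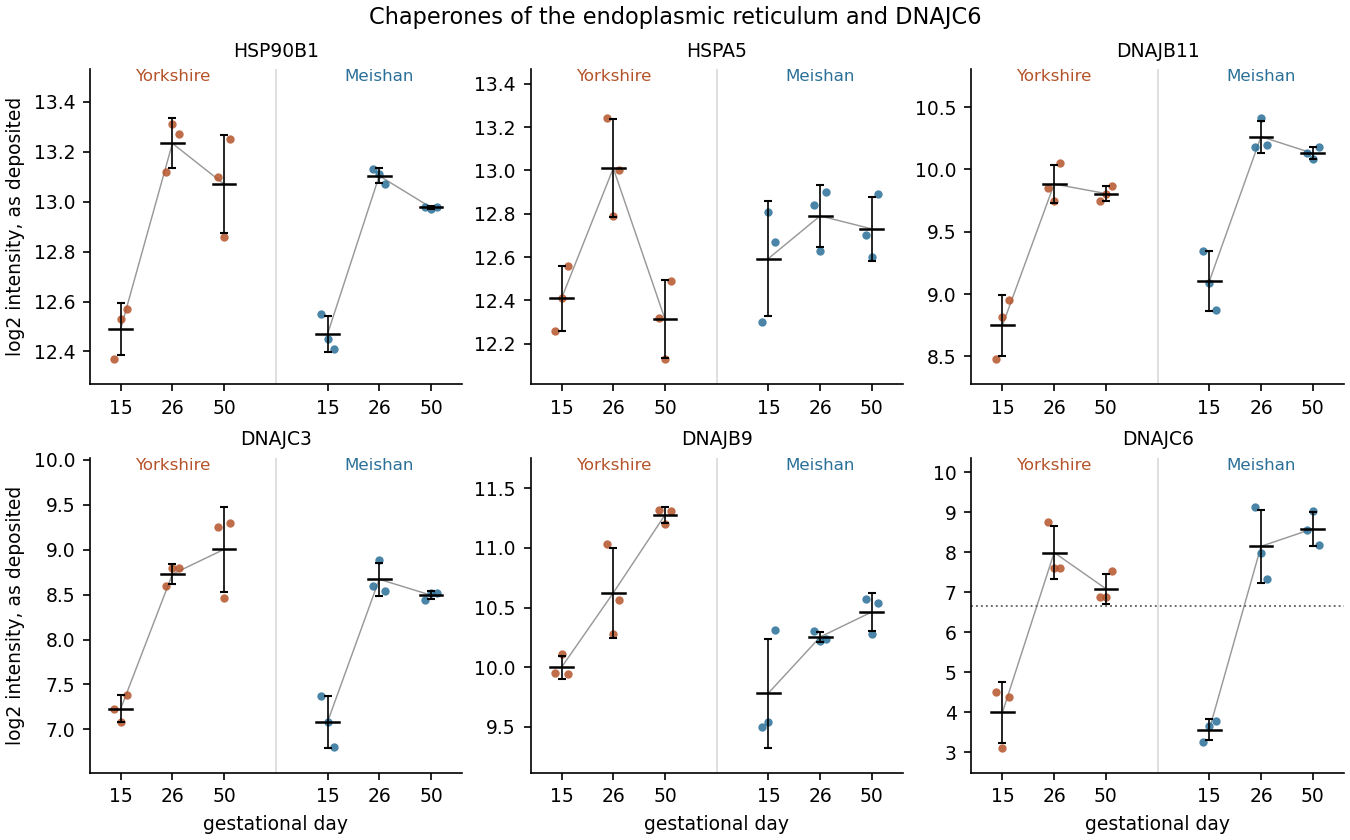
Log2 intensity as deposited of HSP90B1, HSPA5, DNAJB11, DNAJC3, DNAJB9 (brightest probe sets) and DNAJC6 on every array by breed and gestational day; points are arrays, bars group means, whiskers 1 SD, and the dotted line is an intensity of 100. For HSP90B1, DNAJC3 and DNAJB11 every GD26 and GD50 array lies above every GD15 array of the same breed, whereas HSPA5 does so only on GD26 in Yorkshire.

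HSP70.2, DNAJB1, HSPH1 and HSPB1 were at their highest on the Yorkshire GD26 arrays. HSP70.2, the stress-inducible HSP70 of the pig, gave 11.28, 11.53 and 11.15 on Yorkshire GD15 arrays, 13.83, 13.37 and 13.55 on GD26 and 11.31, 11.59 and 11.59 on GD50 with the brightest of its 3 probe sets. On Meishan arrays HSP70.2 gave 10.96, 11.06 and 12.06 on GD15, 11.22, 11.18 and 11.21 on GD26 and 11.58, 11.51 and 11.61 on GD50. The 3 Yorkshire GD26 arrays lay above all 15 others. HSP70.2 rose by 2.27 ± 0.19 in Yorkshire on GD26 against GD15 (limma adjusted p = 8.12e-06) and fell by 2.09 ± 0.19 on GD50 against GD26 (adjusted p = 0.000161). In Meishan on GD26 against GD15 the brightest HSP70.2 set differed by -0.15 (adjusted p = 0.638), while its other sets fell by 0.66 (adjusted p = 0.00222) and by 1.0 (adjusted p = 0.0013).

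DNAJB1, the J-domain partner of the inducible HSP70, gave 10.25, 10.14 and 10.32 on Yorkshire GD15 arrays, 11.54, 11.61 and 11.51 on GD26 and 10.26, 9.64 and 10.29 on GD50. The Meishan DNAJB1 values were 9.88, 9.88 and 9.19 on GD15, 9.49, 9.30 and 9.54 on GD26 and 9.19, 9.33 and 9.27 on GD50. DNAJB1 rose by 1.32 ± 0.20 in Yorkshire (limma adjusted p = 0.000329) and differed by -0.20 in Meishan (adjusted p = 0.396). HSPH1, an HSP110 that recharges HSP70 with ATP, gave 10.39, 10.57 and 10.39 on Yorkshire GD15 arrays, 12.02, 11.24 and 11.30 on GD26 and 9.0, 9.44 and 9.50 on GD50. In Meishan HSPH1 gave 9.88, 10.12 and 10.15 on GD15, 10.68, 10.71 and 10.43 on GD26 and 9.97, 10.06 and 10.05 on GD50. HSPH1 rose in both breeds, by 1.07 ± 0.24 in Yorkshire (adjusted p = 0.00337) and by 0.56 ± 0.14 in Meishan (adjusted p = 0.00677).

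HSPB1, a small heat shock protein, gave 10.89, 11.15 and 10.91 on Yorkshire GD15 arrays, 12.29, 12.05 and 12.23 on GD26 and 11.55, 11.22 and 11.50 on GD50. The Meishan HSPB1 values were 11.35, 11.41 and 11.06 on GD15, 11.22, 11.14 and 10.56 on GD26 and 10.69, 10.75 and 10.50 on GD50. The Yorkshire GD26 arrays were the highest of the 18, and HSPB1 rose by 1.21 ± 0.17 in Yorkshire (limma adjusted p = 0.000204) against a difference of -0.30 in Meishan (adjusted p = 0.213). The change on GD26 against GD15 was larger in Yorkshire than in Meishan for HSP70.2 by 2.42 ± 0.32 (adjusted p = 6.48e-05), for DNAJB1 by 1.52 ± 0.27 (adjusted p = 0.000766) and for HSPB1 by 1.51 ± 0.25 (adjusted p = 0.000395). For HSPH1 the difference was 0.51 (adjusted p = 0.154) on deposited values and 0.87 after centring (adjusted p = 0.0223). HSP70.2, DNAJB1 and HSPH1 also fell more in Yorkshire on GD50 against GD26, by -2.45 (adjusted p = 0.000501), -1.31 (0.0126) and -1.62 (0.00333).

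**Figure D5:**
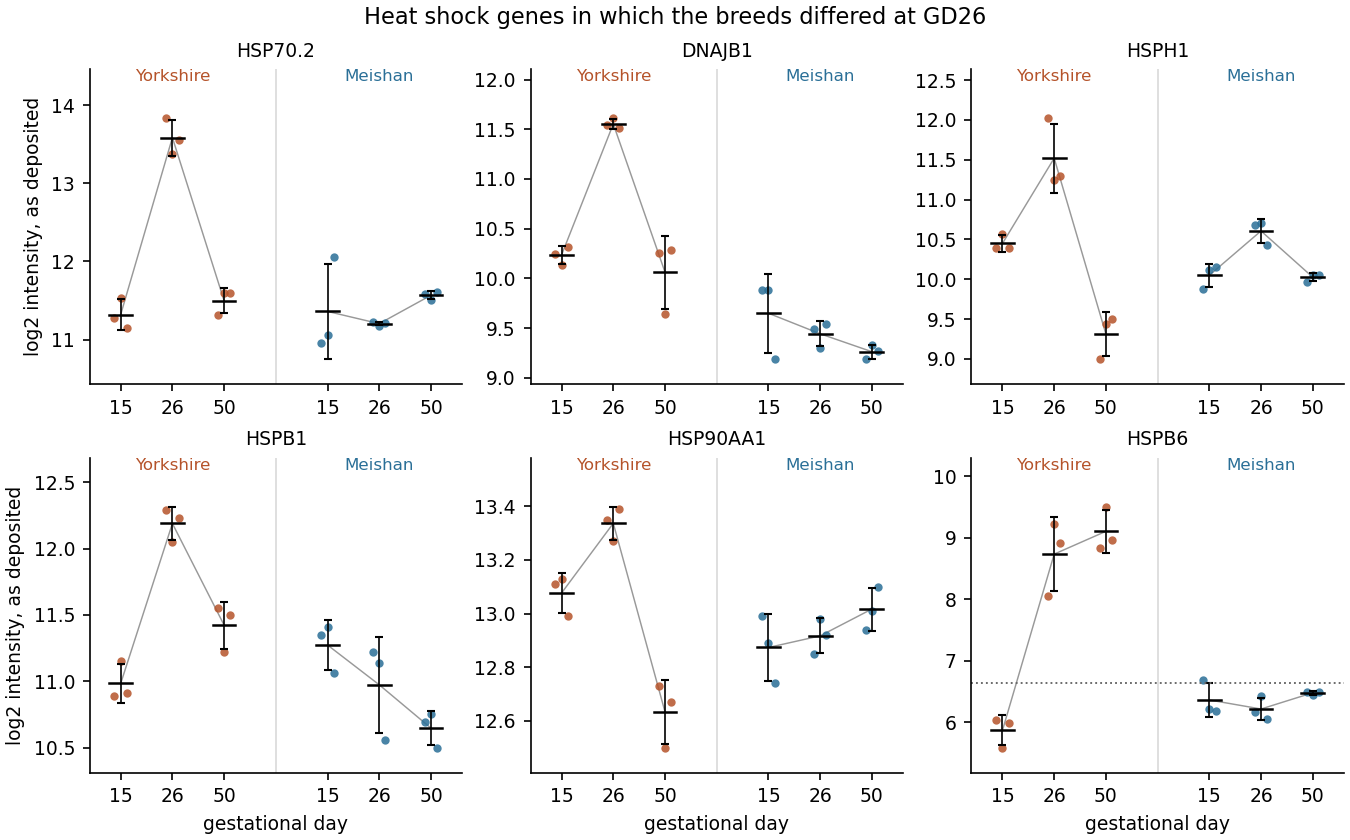
Log2 intensity as deposited of HSP70.2, DNAJB1, HSPH1, HSPB1, HSP90AA1 (brightest probe sets) and HSPB6 on every array by breed and gestational day; points are arrays, bars group means, whiskers 1 SD, and the dotted line is an intensity of 100. The 3 Yorkshire GD26 arrays are the highest for each gene but HSPB6, at 13.37 to 13.83 for HSP70.2 and 11.51 to 11.61 for DNAJB1.

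HSPB6 and HSPB8 were the other small heat shock genes that passed the filter. HSPB6, a small heat shock protein known from muscle, gave 6.03, 5.59 and 5.99 on Yorkshire GD15 arrays, all under an intensity of 100, 8.06, 9.23 and 8.91 on GD26 and 8.84, 9.50 and 8.97 on GD50. Meishan arrays gave HSPB6 at 6.69, 6.22 and 6.18 on GD15, 6.17, 6.42 and 6.06 on GD26 and 6.5, 6.44 and 6.5 on GD50. The 6 later Yorkshire arrays stood above all others. HSPB6 was over 100 on these 6 arrays and 1 other, so it passed the filter through the arrays where it was high. Yorkshire GD26 arrays were at least 4.25-fold above Yorkshire GD15 arrays (limma adjusted p = 0.000902 with no filter), and in Meishan no fold is given because HSPB6 was under or near 100 on all days. All 5 smooth muscle markers past the filter rose in both breeds, where 20.3% of all tested probe sets rose in Yorkshire and 23.8% in Meishan. The marker medians were 1.71 in Yorkshire and 1.19 in Meishan, and the markers' part in the HSPB6 result was not tested. Their sums were 12.27 to 12.61, 13.65 to 13.82 and 13.41 to 13.48 over the days in Yorkshire and 12.81 to 13.00, 13.94 to 14.10 and 13.13 to 13.60 in Meishan. The change on GD26 against GD15 was higher in Yorkshire than in Meishan for 2 of the 5 markers and lower for none (3 and none after centring). Over all tested probe sets 8.7% were higher and 26.8% lower (13.8% and 13.0% after centring). The median difference of the markers was 0.89 (1.25 after centring). Among the markers MYL9 averaged 10.23 on GD26 against 6.62 on GD15 in Yorkshire, and 7.90 against 6.59 in Meishan. HSPB8, which acts with HSP70 in selective autophagy, averaged 7.60, 8.12 and 8.75 in Yorkshire and 7.30, 7.49 and 7.94 in Meishan. Its change in Yorkshire was 0.52 (adjusted p = 0.056) and 0.92 after centring (adjusted p = 0.00551).

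Other cytosolic HSP90 and HSP70 genes were read by probe sets that disagreed. For HSP90AA1, the inducible cytosolic HSP90, the brightest of 5 sets differed by 0.26 in Yorkshire (limma adjusted p = 0.15; 0.65, adjusted p = 0.0045 after centring) and 0.04 in Meishan (adjusted p = 0.806) on GD26 against GD15. A dimmer HSP90AA1 set rose by 3.67 in Yorkshire and 2.38 in Meishan, and another fell by 1.77 and 1.09. For HSPA8, the constitutive cytosolic HSP70, the brightest of 4 sets rose by 0.52 in Yorkshire (adjusted p = 0.014, and 0.0617 without GD15 replicate 1) and was 0.29 higher in Meishan (adjusted p = 0.0969, and 0.0466 without GD15 replicate 3). The 3 dimmer HSPA8 sets fell by 2.24 to 3.31 in Yorkshire and by 1.82 to 2.35 in Meishan. No direction is therefore given for HSPA8 or HSP90AA1 as genes. In all, 16 member genes had several tested probe sets, 40 together. Of their 112 pairs of gene and comparison between days or breeds, 5 had calls in opposite directions on deposited values, in 2 genes, and 8 after centring, in 3 genes.

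HSPA9, the mitochondrial HSP70, fell by 0.65 in Yorkshire on GD26 against GD15 with its brightest set (limma adjusted p = 0.00832), which was -0.26 after centring (adjusted p = 0.256), and differed by -0.05 in Meishan. The dimmer HSPA9 set went the other way in Yorkshire, at 0.27 (adjusted p = 0.352), and was called higher after centring at 0.67 (adjusted p = 0.0181). HSP90AB1, the constitutive cytosolic HSP90, was 0.25 higher in Yorkshire (adjusted p = 0.158). HSPD1, the mitochondrial chaperonin, was 0.09 higher (adjusted p = 0.644) and 0.49 higher after centring (adjusted p = 0.0163). Among the cytosolic chaperonin subunits, CCT6A differed between the breeds on GD15. The brighter CCT6A set gave 10.32, 10.55 and 10.67 on Yorkshire GD15 arrays, 10.87, 10.79 and 10.84 on GD26 and 10.70, 10.76 and 10.77 on GD50. In Meishan it gave 11.66, 11.50 and 11.61 on GD15, 11.17, 10.99 and 11.08 on GD26 and 10.92, 10.64 and 10.63 on GD50. As deposited, the breeds were apart in this set on GD15 and overlapped on GD50. The dimmer CCT6A set was called higher in Yorkshire on GD50 (0.33), and both sets were after centring (0.43 and 0.74). The brighter set fell by 0.51 in Meishan on GD26 against GD15 (limma adjusted p = 0.00906) and differed by 0.32 in Yorkshire (adjusted p = 0.0917). These changes differed by 0.83 ± 0.18 (adjusted p = 0.00295). In Yorkshire the dimmer set rose by 0.71, and both were called higher after centring (0.71 and 1.1).

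J-domain genes were called in both directions. In Yorkshire on GD26 against GD15, 7 of 28 J-domain probe sets rose and 10 fell (8 and 5 after centring). Of all tested probe sets 20.3% rose and 44.9% fell (29.0% and 30.7% after centring). In Meishan 5 rose and 5 fell (8 and 5), where 23.8% of all rose and 27.1% fell (25.4% and 25.5% after centring). DNAJC6, auxilin, which strips clathrin from vesicles, gave 4.5, 3.12 and 4.38 on Yorkshire GD15 arrays, 8.76, 7.61 and 7.60 on GD26 and 6.87, 6.87 and 7.52 on GD50. Meishan DNAJC6 values were 3.27, 3.65 and 3.79 on GD15, 9.13, 7.97 and 7.34 on GD26 and 8.55, 9.02 and 8.18 on GD50. DNAJC6 was under an intensity of 100 on all GD15 arrays and over it on all later ones, through which it passed the filter. GD26 arrays were at least 2.54-fold above GD15 arrays in Yorkshire (limma adjusted p = 0.00114 with no filter) and at least 2.83-fold in Meishan (adjusted p = 0.000975 with no filter). The trophoblast sums given above moved with DNAJC6, at 7.28 to 7.57 on GD15 arrays and 15.3 to 16.44 on GD26 arrays, and their part in it was not tested.

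DNAJB2, a J-domain protein that also binds ubiquitin, gave 8.45, 8.23 and 8.43 on Yorkshire GD15 arrays, 5.70, 4.74 and 5.59 on GD26 and 5.52, 5.64 and 6.01 on GD50. On Meishan arrays DNAJB2 gave 8.25, 8.40 and 7.97 on GD15, 6.44, 6.46 and 6.42 on GD26 and 7.04, 7.23 and 7.05 on GD50. DNAJB2 fell in both breeds, at least 3.31-fold in Yorkshire (limma adjusted p = 0.000302 with no filter) and at least 2.96-fold in Meishan (adjusted p = 0.00016 with no filter). In Meishan it was at least 1.38-fold higher on GD50 than on GD26 (adjusted p = 0.0185 with no filter). DNAJB2 passed the filter through the 6 GD15 arrays and the 3 Meishan GD50 arrays. DNAJC14, a protein of the endoplasmic reticulum membrane, fell by 0.84 in Meishan (adjusted p = 0.0023) and at least 3.63-fold in Yorkshire (adjusted p = 0.002). DNAJA2, a cytosolic partner of HSPA8, gave 9.02, 8.80 and 8.73 on Yorkshire GD15 arrays, 8.28, 7.95 and 7.69 on GD26 and 7.49, 7.59 and 7.20 on GD50, and lay between 9.26 and 9.75 on all 9 Meishan arrays. HSPB11 is named as a heat shock protein but is part of the transport machinery of cilia. It fell at least 1.70-fold in Yorkshire (limma adjusted p = 0.00492 with no filter) and differed by -0.16 in Meishan. HSPB11 passed the filter on 8 arrays, among them all 3 GD15 arrays of each breed.

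Genes that work with the chaperones, 23 of 28 listed being on the array and past the filter, were called in both directions. In Yorkshire on GD26 against GD15, 4 rose and 9 fell (7 and 4 after centring). Of all tested probe sets 20.3% rose and 44.9% fell (29.0% and 30.7% after centring). In Meishan 2 rose and 5 fell (2 and 4), where 23.8% of all rose and 27.1% fell (25.4% and 25.5% after centring). CRYAB, a small heat shock protein under another symbol, averaged 8.07, 11.94 and 12.16 over the days in Yorkshire and 8.93, 11.25 and 11.98 in Meishan. FKBP5, an HSP90 partner of steroid receptors, averaged 11.31, 7.53 and 7.02 in Yorkshire and 11.01, 8.92 and 8.08 in Meishan.

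On GD50 against GD26 the chaperone calls were mostly falls in both breeds, and few proteasome members were called. In Yorkshire 1 chaperone probe set rose and 13 fell, and 1 proteasome probe set rose and none fell, where 5.72% of all tested probe sets rose and 7.85% fell. After centring, 2 and 15 chaperone probe sets were called and again 1 of the proteasome, PSMD10, where 7.48% of all rose and 8.02% fell. The centred chaperone count of 17 was 9 without Yorkshire GD26 replicate 3, and the proteasome count was 2 without GD50 replicate 3. In Meishan 2 chaperone probe sets rose and 13 fell (2 and 12 after centring; 2 and 9 with the replicate number as a block), and 3 proteasome probe sets fell on both scales (2 with the block), where 8.2% of all rose and 10.2% fell (8.25% and 10.0% after centring). The Meishan chaperone count of 15 was 9 without any 1 of the GD26 replicates and 8 without GD50 replicate 1, and the centred count of 14 was 9 without GD26 replicate 2 or 3 or GD50 replicate 3 and 7 without GD50 replicate 1. The centred proteasome count of 3 was 1 without GD26 replicate 3 or GD50 replicate 1. The median changes were -0.36 for chaperones, -0.06 for the proteasome and -0.07 over all in Yorkshire, and -0.13, -0.12 and -0.02 in Meishan.

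DNAJA1, a J-domain partner of HSPA8, fell in both breeds on GD50. It gave 11.49, 11.28 and 11.35 on GD50 arrays against 12.43, 12.06 and 12.21 on GD26 arrays in Yorkshire, and 11.40, 11.36 and 11.25 against 12, 11.85 and 11.89 in Meishan. DNAJA1 fell by 0.86 ± 0.17 in Yorkshire (limma adjusted p = 0.00968) and by 0.58 ± 0.12 in Meishan (adjusted p = 0.00952). The dimmer DNAJA1 set, under 100 on all Yorkshire GD26 arrays, was higher on GD50 there without passing the test (adjusted p = 0.289). HSP90AB1 gave 11.59, 11.72 and 11.71 on GD50 arrays against 12.47, 12.35 and 12.58 on GD26 arrays in Yorkshire, and 11.78, 11.94 and 11.91 against 12.19, 12.40 and 12.29 in Meishan. It fell by 0.79 ± 0.15 (adjusted p = 0.00771) and by 0.42 ± 0.12 (adjusted p = 0.0386), and the Meishan call of HSP90AB1 was lost without any 1 of its 6 arrays and with the replicate number as a block (adjusted p = 0.0526). HSPD1 fell by 0.69 in Yorkshire (adjusted p = 0.0265) and by 0.43 in Meishan (adjusted p = 0.0418), with the same losses in Meishan (adjusted p = 0.0686 with the block). HSPA5 fell by 0.70 in Yorkshire (adjusted p = 0.0347, lost without any of 4 arrays). HSPB1 (-0.77, adjusted p = 0.0168), DNAJB1 (-1.49, adjusted p = 0.0014) and HSPH1 (-2.21, adjusted p = 0.000452) fell in Yorkshire too, and HSPH1 fell by 0.59 in Meishan (adjusted p = 0.0161, lost without any of 3 arrays). DNAJB9 rose by 0.77 in Yorkshire with its second brightest set (adjusted p = 0.0207). In Meishan all 3 DNAJB9 sets were positive, at 0.2 to 1.04, and 1 was called higher on both scales.

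Between the breeds, few members differed on GD15. In Yorkshire against Meishan, 1 chaperone probe set was higher and 5 were lower, and 1 of the proteasome was lower, with the same counts after centring, where 4.92% of all tested probe sets were higher and 4.87% lower (5.13% and 5.28% after centring). The chaperone count of 6 was 3 without Yorkshire GD15 replicate 2. PSME3 was lower by -0.83 (limma adjusted p = 0.00545), at least 1.43-fold. CCT6A was lower by -1.08 (adjusted p = 4.6e-05), and HSPA4, an HSP110, by -1.15 with the dimmer of its tested sets (adjusted p = 0.0018). The brighter HSPA4 set was at -0.05 and was not called, so no direction is given for HSPA4 as a gene.

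On GD26 more members differed, and the split of calls depended on the scale. As deposited, 13 chaperone probe sets were higher and 20 lower in Yorkshire, and none of the proteasome was higher and 23 were lower, where 10.7% of all were higher and 42.5% lower. After centring, 26 chaperone probe sets were higher and 10 lower, and 2 of the proteasome were higher and 5 lower, where 19.1% of all were higher and 22.2% lower. The median differences were -0.16 for chaperones, -0.39 for the proteasome and -0.42 over all as deposited, and 0.20, -0.04 and -0.07 after centring. The proteasome count of 23 was 15 without Meishan GD26 replicate 2 and 13 without replicate 3. The centred count of 7 was 3 without Meishan GD26 replicate 2, 4 without replicate 3 and 4 without Yorkshire GD26 replicate 2. On both scales 5 proteasome probe sets were lower, those of PSMB3 (-1.5, limma adjusted p = 0.000149), PSMC2 (-1.34 with the second brightest of its 3 sets, adjusted p = 5.21e-05), PSMD10 (-0.91, adjusted p = 0.000991), PSMA3 (-0.81, adjusted p = 0.00103) and PSMB5 (-0.76, adjusted p = 9.83e-05). PSMB5, the chymotrypsin-like catalytic subunit, gave 10.64, 10.60 and 10.55 on Yorkshire GD26 arrays against 11.28, 11.40 and 11.41 on Meishan ones. The immunoproteasome and PA28 genes were lower in Yorkshire on deposited values only, for example PSMB8 by -1.18 (adjusted p = 0.0145) and -0.82 after centring (adjusted p = 0.106), and PSME1 by -0.90 (adjusted p = 0.00518) and -0.55 after centring (adjusted p = 0.112).

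Among the chaperones on GD26, the heat shock genes named above led the higher group in Yorkshire. HSP70.2 was higher by 2.38 ± 0.23 (limma adjusted p = 9.14e-07), DNAJB1 by 2.11 ± 0.19 (adjusted p = 5.91e-07), HSPB1 by 1.22 ± 0.18 (adjusted p = 5.32e-05) and HSPH1 by 0.91 ± 0.19 (adjusted p = 0.00119). The brightest HSP90AA1 set was higher by 0.42 (adjusted p = 0.0089), while another was lower by -0.92 (adjusted p = 0.0198; -0.57, adjusted p = 0.119 after centring). The brightest sets of these 5 genes were called higher on both scales. HSPB6, with the filter limit given above, was at least 4.25-fold higher (adjusted p = 1.84e-05 with no filter). The lower group held J-domain genes and HSPA14, a ribosome-bound HSP70. DNAJA2 was lower by -1.46 (adjusted p = 9.21e-06), HSPA14 by -1.36 (adjusted p = 0.000952), the brighter set of DNAJC8, which is found with the spliceosome, by -1.27 (adjusted p = 0.000104) and DNAJA3, of mitochondria, by -1.09 (adjusted p = 6.28e-05), each on both scales. The dimmer DNAJC8 set was at 0.13 (adjusted p = 0.407) and was called higher after centring (0.49, adjusted p = 0.00618), so no direction is given for DNAJC8 as a gene. HSPA14 passed the filter on 7 arrays, 6 of them the later Meishan ones, and its adjusted p was 0.0036 with no filter. Of the 28 J-domain probe sets 1 was higher and 13 were lower as deposited, where 10.7% of all tested probe sets were higher and 42.5% lower. After centring 6 were higher and 8 lower, where 19.1% of all were higher and 22.2% lower.

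On GD50 12 chaperone probe sets were higher and 24 lower in Yorkshire against Meishan, and none of the proteasome was higher and 16 were lower, where 10.9% of all were higher and 45.6% lower. After centring, 20 and 12 chaperone probe sets and 7 and 4 of the proteasome were called, where 20.9% of all were higher and 22.6% lower. The centred proteasome count of 11 was 5 without Meishan GD50 replicate 1, 6 without replicate 3 and 6 without Yorkshire GD50 replicate 2. The median differences were -0.25 for chaperones, -0.34 for the proteasome and -0.46 over all, and 0.16, 0.07 and -0.05 after centring. PSMB3 was lower by -2.19 ± 0.25 (limma adjusted p = 4.84e-06) and the second brightest PSMC2 set by -1.52 (adjusted p = 1.59e-05). This PSMC2 set gave 8.60, 8.03 and 8.50 on Yorkshire GD50 arrays against 9.85, 9.98 and 9.87 on Meishan ones. DNAJA2 was lower by -1.97 (adjusted p = 4.49e-07). HSPB6 was at least 5.50-fold higher (adjusted p = 1.32e-05 with no filter). DNAJB1 was higher by 0.80 (adjusted p = 0.00283), HSPB8 by 0.80 (adjusted p = 0.00329) and HSPB1 by 0.78 (adjusted p = 0.00174). HSPH1, higher in Yorkshire on GD26, was lower on GD50 by -0.71 (adjusted p = 0.00595), and -0.30 after centring (adjusted p = 0.206).

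The change on GD26 against GD15 was tested for a difference between the breeds. It was higher in Yorkshire than in Meishan for 9 chaperone probe sets and lower for 12, and for 1 and 7 of the proteasome, where 8.7% of all tested probe sets were higher and 26.8% lower. After centring the counts were 19 and 3 for chaperones and 1 and 2 for the proteasome, where 13.8% of all were higher and 13.0% lower. The centred chaperone count of 22 was 14 without Meishan GD26 replicate 2 and 13 without Yorkshire GD15 replicate 1, and the centred proteasome count of 3 was 5 without Yorkshire GD26 replicate 1. The proteasome calls that held on both scales were PSME3 (0.97, limma adjusted p = 0.00739) on the higher side and PSMB3 and PSMD10 (-1.09, adjusted p = 0.00593) on the lower side. The centred PSMD10 call (-0.73, adjusted p = 0.049) was lost when any of 9 of the 12 arrays was left out (adjusted p up to 0.122) and with cyclic loess (adjusted p = 0.0873). For the change on GD50 against GD26, limma called no proteasome member different between the breeds on either scale (0 members at an unadjusted p under 0.05 as deposited and 1 after centring), and 6 chaperone probe sets were lower in Yorkshire and none higher, where 2.05% of all were higher and 2.32% lower (2.88% and 2.4% after centring). Those 6 were the 3 probe sets of HSP70.2 and 1 each of HSPH1, DNAJB1 and HSP90AA1 (-0.81, adjusted p = 0.0136). The other HSP90AA1 sets were not called, at -0.79 to 0.5.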

How the data were processed

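RNA from 18 endometrial pools, 3 for each of 6 groups of breed and day, was hybridized to a porcine Affymetrix array. The authors background-corrected and normalized the arrays with GCRMA (RMA is also named in their processing notes), and deposited 1 log2 intensity per probe set and array; versions are not given in the sources used here. Arrays have no read depth, and their number limits the precision. Groups came from the sample labels. Probe sets were named through the platform annotation, where 10099 had 1 symbol, 198 several and 13826 none. For 122 members the symbol was current, and the 3 CCT6A probe sets had no current entry under their identifier.

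Probe sets over an intensity of 100 on at least 6 arrays were kept (9399), and 79 control probe sets among them were removed, leaving 9320. Comparisons were fitted with limma 3.58.1 (R 4.3.3): GD26 against GD15 and GD50 against GD26 within each breed (9 arrays), and the breed comparisons and the breed differences in change in 1 fit of 18 arrays. A probe set was called at a Benjamini-Hochberg adjusted p under 0.05 over the 9320. Errors of changes are standard errors of the fit. Deviations of arrays with equal replicate numbers correlated over 0.1 in all 3 pairs (0.176, 0.13 and 0.328) only for Meishan GD26 and GD50. The labels do not pair these arrays, and arrays with unlike numbers were not compared, so a pairing was not shown. The fit with the number as a block is given beside that comparison. Where a group was under 100 on all its arrays, the fold was given as a lower bound against 100. The script was tested on simulated data. Python 3.11.15, pandas 2.3.3 and matplotlib 3.10.9 were used for counts and figures.

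The members, the gene lists (antigen presentation, endoplasmic reticulum folding, chaperone partners, proteasome assembly) and the marker lists (epithelium, stroma, endothelium, leukocytes, red blood cells, smooth muscle, trophoblast) were chosen with earlier results of these data known. The rule for named genes took, for each comparison and family, up to 4 called members with the largest rise and up to 4 with the largest fall on deposited values. It added in every comparison PSMB8, PSMB10, PSME1 to PSME4, PSMD5, HSP90AA1, HSP90AB1, HSP90B1, HSPA5, HSPA8, HSPA9, HSPD1, HSPE1, HSPB1, HSPH1, HSP70.2, DNAJB9, DNAJB11 and DNAJC3, each by its brightest probe set. PSMD1, PSMC2 and the dimmer sets of HSP90B1, HSP90AA1, HSPA8, HSPA4, DNAJB9 and DNAJC14 were named after their values were seen, and HSPE1 was called in no comparison (limma adjusted p = 0.247 or higher as deposited and 0.084 or higher median centred). The alternatives run were median centring, quantile normalization, fitting before the filter, no filter, an intensity above 200, the replicate number as a block, 1 fit over both breeds and leaving out each array. Cyclic loess and the combinations of median centring with the other settings were chosen after seeing the data. The 4 endothelium markers had summed levels of 10.54 to 11.96, the red blood cell marker 6.17 to 8.97, and 1 leukocyte marker, CD163, passed the filter.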

Additional observations from a re-analysis of the deposited data

Results flagged for a closer look

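The results below were picked out because the change between days differed between the breeds in a test of the difference itself (limma interaction term, Yorkshire change minus Meishan change, adjusted p over 9320 probe sets). For the change on GD26 against GD15 the higher values were HSPB6 at 3.01 (adjusted p = 2.65e-05), HSP70.2 at 2.42 (6.48e-05), DNAJB1 at 1.52 (0.000766), HSPB1 at 1.51 (0.000395) and PSME3 at 0.97 (0.00739), all also called after median centring. HSP70.2 changed by 2.27 in Yorkshire and -0.15 in Meishan, DNAJB1 by 1.32 and -0.20, and HSPB1 by 1.21 and -0.30. HSPB6 was at least 4.25-fold higher on GD26 in Yorkshire, PSME3 at least 1.86-fold, and PSME3 changed by 0.23 in Meishan. HSPB6 passed the filter through the later Yorkshire arrays, and its value of 3.01 rests on levels under 100 in Yorkshire GD15 and Meishan GD26 (adjusted p = 0.000174 with no filter). That of PSME3 rests on such levels in Yorkshire GD15.

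The lower values that were also called after centring were HSPB11 at -2.11 (adjusted p = 0.0016), PSMB3 at -1.64 (0.00236), DNAJB2 at -1.26 (0.00487) and PSMD10 at -1.09 (0.00593; 0.049 after centring). PSMB3 changed by -1.07 in Yorkshire and 0.57 in Meishan, and PSMD10 by -0.19 and 0.90. HSPB11 was at least 1.70-fold lower on GD26 in Yorkshire and changed by -0.16 in Meishan. DNAJB2 was at least 3.31-fold lower in Yorkshire and at least 2.96-fold in Meishan, so the values of HSPB11 and DNAJB2 rest on levels under 100. Both passed the filter through arrays where they were high, and with no filter their limma adjusted p values were 0.00545 and 0.0103. The centred call of PSMD10 was lost without any of 9 of the 12 arrays (adjusted p up to 0.122) and with cyclic loess (0.0873), and that of DNAJB2 (0.0344) without any of 7 arrays (up to 0.0759) and with cyclic loess (0.09). Another 5 values passed on deposited values only. They were DNAJC14 at -2.04 (adjusted p = 0.0245; 0.0514 after centring), HSPA14 at -1.12 (0.038; 0.115; 0.0826 with no filter), PSME4 at -1.12 (0.0403; 0.145), PSMA3 at -0.82 (0.0151; 0.174) and HSPA9 at -0.60 (0.0269; 0.415). The DNAJC14 value is that of its brighter set and rests on levels under 100 in Yorkshire GD26. Its dimmer set, also under 100 there, was at -0.42 (limma adjusted p = 0.425) and -0.07 after centring. The dimmer HSPA9 set was at 0.08 (adjusted p = 0.879).

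For the change on GD50 against GD26 the values were HSP70.2 at -2.45 (adjusted p = 0.000501), HSPH1 at -1.62 (0.00333), DNAJB1 at -1.31 (0.0126) and HSP90AA1 at -0.81 (0.0136), called on both scales. HSP70.2 changed by -2.09 in Yorkshire and 0.36 in Meishan, HSPH1 by -2.21 and -0.59, DNAJB1 by -1.49 and -0.18, and HSP90AA1, by its brightest probe set, by -0.71 and 0.10. The difference between breeds in the other HSP90AA1 sets was 0.5, 0.12, -0.71 and -0.79, none of them called. The centred call of the brightest HSP90AA1 set was lost without any of 4 arrays (limma adjusted p up to 0.0644). No direction is therefore given for HSP90AA1 as a gene. The later Yorkshire arrays, with their lower overall levels, enter every one of these values, and this property cannot be told apart from the groups.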

How the results depend on the processing

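Of 243 pairs of named gene and comparison, 118 were called. Many calls did not hold under the alternatives. Reversed pairs apart, 18 calls were lost with median centring, 22 with cyclic loess and 10 with quantile normalization, while 17, 11 and 3 pairs gained one. Leaving out 1 array could end 28 of the 118 calls. With median centring and 1 array left out, 43 of the deposited calls could be lost, a number that losses from centring itself enter. Calls of single genes kept their direction under every alternative run, with 3 exceptions in Yorkshire against Meishan on GD50. HSP90AA1 was -0.39 as deposited and 0.03 after median centring, with or without the replicate block. HSPA8 was -0.06 and 0.36 after centring, and HSPA9 reached 0.01 with centring when an array was left out. In Yorkshire against Meishan on GD26, 23 proteasome probe sets were called as deposited, 13 with quantile normalization, 10 with cyclic loess, 7 with centring and 6 with centring and the block. On GD50, 16 were called, and 9 with cyclic loess or with centring and the block. For the breed difference in the change on GD26 against GD15, 8 were called, 5 with quantile normalization and 3 with centring, with cyclic loess or with centring and the block. On GD15, 1 proteasome probe set was called, 2 with quantile normalization and 0 with an intensity above 200, where fewer probe sets were tested. The Yorkshire proteasome split of 4 higher and 17 lower on GD26 against GD15 was 8 and 11 with quantile normalization and 12 and 5 with centring.

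With 1 fit over both breeds, the calls on GD50 against GD26 were 9 chaperone probe sets in Meishan (15 within the breed; 9 with centring), 25 in Yorkshire (14 within the breed; 26 with centring) and 3 Yorkshire proteasome probe sets (1 within the breed; 2 with centring); the cause was not tested.

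Leaving out 1 array gave, as deposited and then centred, these numbers of called proteasome probe sets. On GD26 against GD15 there were 10 to 20 and 10 to 16 in Yorkshire and 6 to 15 and 6 to 15 in Meishan. On GD50 against GD26 there were 1 to 2 and 1 to 2 in Yorkshire and 2 to 2 and 1 to 2 in Meishan. Yorkshire against Meishan had 1 to 1 and 1 to 1 on GD15, 13 to 18 and 3 to 8 on GD26 and 12 to 16 and 5 to 11 on GD50, and the breed difference on GD26 against GD15 had 6 to 12 and 2 to 5. For chaperones the ranges were 32 to 40 and 37 to 43 in Yorkshire and 22 to 29 and 21 to 28 in Meishan on GD26 against GD15, and 11 to 14 and 9 to 20 in Yorkshire and 8 to 12 and 7 to 12 in Meishan on GD50 against GD26. Between breeds they were 3 to 6 and 4 to 7 on GD15, 28 to 34 and 31 to 38 on GD26, 30 to 35 and 29 to 34 on GD50, and 15 to 28 and 13 to 26 for the difference on GD26 against GD15.

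The replicate numbers are shared between groups, and deviations from the group means correlated at -0.561 to 0.328 over 45 pairs of arrays with the same number, 12 of them over 0.1. All 3 pairs were over 0.1 in 1 of 15 pairs of groups, Meishan GD26 and GD50. Arrays with unlike numbers were not compared, so a pairing was not shown there either. With the replicate number as a block, 238 named pairs kept their side of the threshold and 5 lost their call. The Yorkshire proteasome count on GD26 against GD15 was then 15, not 21, and no count moved by over 1.5 times as deposited.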
